A study of Mus musculus with 6 samples.

Results

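The receptor chains for cytokines that signal through the common gamma chain were followed in Th9 cells with and without the transcription factor IRF1. The set was chosen by name, with earlier results of these data known. It holds 8 genes: Il2rg, the common chain itself, and the 7 private or shared partners Il2ra, Il2rb, Il4ra, Il7r, Il9r, Il15ra and Il21r. They are 8 of 41388 genes in the deposited table, and all 8 were among the 11379 genes that were tested because their normalized counts averaged 10 or more. The normalized count is the number of reads on a gene after division by a size factor of its library.

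IL-2, IL-4, IL-7, IL-9, IL-15 and IL-21 each bind a chain of their own and then recruit the common gamma chain. This brings JAK3 next to the JAK1 held by a signalling partner chain, which for IL-2 and IL-15 is the Il2rb product. The kinases phosphorylate STAT proteins, mainly STAT5 for IL-2, IL-7, IL-9 and IL-15, STAT6 for IL-4 and STAT3 for IL-21. In T cells these receptors govern growth, survival and helper cell fate, and IL-2 and IL-4 are among the cytokines used to make Th9 cells in culture.

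T cells of C57BL/6 background came from spleen and lymph nodes of WT mice or of Irf1-/- mice, which lack functional IRF1 in every cell of the body, and the methods of the study describe them as naive CD4+ T cells. Both groups were activated through CD3 and CD28 and kept for 2 days under Th9 conditions with IL-2, IL-4 and TGF-β. Both also received IFN-γ, so the cytokines added to the cultures were shared between the genotypes. Each genotype had 3 libraries of polyadenylated RNA. There was no culture without IFN-γ among the samples analysed here. The question asked of the 8 genes was which receptor chains differed between Irf1-/- and WT Th9 cells, and by how much.

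Reads on genes ranged from 5639788 to 13348230 per library, and replicate 3 of each genotype was the largest. Both replicate 3 libraries also stood apart on the second principal component, which held 18% of the variance, at -20.9 (WT) and -19.1 (Irf1-/-) against 5.11 to 18.1 for the other 4. Irf1 itself was 2660 to 2968 in WT and 1476 to 1780 in Irf1-/- libraries, so the libraries labelled Irf1-/- still held reads on this gene, at a lower level (log2 fold change -0.78, adjusted p = 7.32e-05, limma). WT replicates 1 and 2 carried Y-linked transcripts, with a summed normalized count of up to 2306, whereas WT replicate 3 had 0 and the Irf1-/- libraries had at most 11.1. The female-specific transcript Xist was at 18331 in WT replicate 3 and at 16973 to 19403 in Irf1-/- libraries, against 2.5 and 6.01 in the other WT libraries. Where a difference between genotypes follows this division of the libraries, genotype and sex of origin cannot be told apart. Values from a fit with Y-linked transcripts as a factor are given with each receptor chain. That fit sets WT replicate 3 alone against the Irf1-/- libraries, so it also takes in what sets replicate 3 apart. Its values are therefore not genotype effects adjusted for sex alone. The defining CD4 T cell genes summed to 15131 to 15562 in WT and 14658 to 15032 in Irf1-/- libraries, NK cell genes summed to at most 2.39, and CD8 T cell genes to 32.4 to 41.2 and 20.3 to 30.7. B cell genes summed to 18.7 to 27.7 in WT and 35.1 to 43 in Irf1-/- libraries, with Pax5 at 0 in all, and a list of 11 myeloid genes summed to 143 to 296 in WT but 67.1 to 1132 in Irf1-/-, highest in Irf1-/- replicate 2. The part of these other cell types in the values of the receptor chains was not tested.

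Windows around the transcription starts of 7 of the 8 genes were found in the RefSeq promoter table for build GRCm38.p6, each with 250 bases upstream of and 50 bases from the annotated start. They are shown where they hold letters of motifs to which proteins of the interferon response bind. One is the core of the interferon-stimulated response element that IRF proteins recognise, searched as AANNGAAA, and the other is the gamma-activated site that STAT proteins recognise, searched as TTCNNNGAA, both on either strand. Of 32851 promoter windows of the same length, 23.9% held the first and 8.3% the second. The first was found in both start windows of Il15ra and in that of Il2rg, and the second only in the Il7r window among the members searched. Capitals mark the match, and each window is given 5′ to 3′ on the strand of the gene.
Il15ra, upstream start, chr2:11705043-11705342, plus strand: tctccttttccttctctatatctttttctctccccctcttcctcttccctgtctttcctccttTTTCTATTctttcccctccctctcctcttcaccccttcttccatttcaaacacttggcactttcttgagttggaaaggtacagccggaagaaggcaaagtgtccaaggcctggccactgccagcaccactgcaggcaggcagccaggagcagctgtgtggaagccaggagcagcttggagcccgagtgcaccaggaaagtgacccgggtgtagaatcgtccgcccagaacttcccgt
Il15ra, downstream start, chr2:11705462-11705761, plus strand: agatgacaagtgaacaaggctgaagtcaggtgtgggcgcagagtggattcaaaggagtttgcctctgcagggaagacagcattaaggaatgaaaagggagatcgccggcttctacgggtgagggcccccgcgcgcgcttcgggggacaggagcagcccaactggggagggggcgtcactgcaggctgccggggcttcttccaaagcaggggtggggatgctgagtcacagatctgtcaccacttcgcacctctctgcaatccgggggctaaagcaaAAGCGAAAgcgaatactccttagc
Il2rg, chrX:101268206-101268505, minus strand: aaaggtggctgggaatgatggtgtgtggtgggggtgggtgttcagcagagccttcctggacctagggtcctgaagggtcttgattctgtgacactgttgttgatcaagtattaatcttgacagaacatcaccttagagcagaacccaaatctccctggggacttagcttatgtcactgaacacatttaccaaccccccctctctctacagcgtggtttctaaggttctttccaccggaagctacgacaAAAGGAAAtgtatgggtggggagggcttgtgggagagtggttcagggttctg
Il7r, chr15:9529827-9530126, minus strand: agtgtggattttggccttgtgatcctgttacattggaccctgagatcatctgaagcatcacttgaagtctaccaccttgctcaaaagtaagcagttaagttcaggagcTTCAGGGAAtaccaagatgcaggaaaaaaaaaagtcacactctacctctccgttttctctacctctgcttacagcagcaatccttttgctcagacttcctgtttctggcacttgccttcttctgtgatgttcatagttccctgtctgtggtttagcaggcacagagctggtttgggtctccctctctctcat

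In the upstream Il15ra window the match, AATAGAAA, lay on the opposite strand and began 187 bases before the start. In the downstream window the match was AAGCGAAA, on the strand of the gene, and its first base was 26 bases past the start. The Il2rg match, AAAGGAAA, spanned the start itself. The Il7r match, TTCAGGGAA, began 142 bases upstream and reads as the motif on both strands. These are matches of letters and no measure of binding. The windows of Il2ra, Il4ra, Il9r and Il21r held neither sequence.

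Of the 8 receptor chains, 2 were higher in Irf1-/- than in WT Th9 cells, Il2rb and Il4ra, and 4 were lower, Il15ra, Il7r, Il2rg and Il21r. On the scale of the test, log2(normalized count + 1), Il15ra was 4.81-fold lower, and the mean of Il7r was 41.5% of that in WT, whereas the other 4 differed by 1.71-fold or less. Il2ra and Il9r did not pass the threshold. For all genes tested, limma called 11.4% higher and 12.4% lower at an adjusted p below 0.05, 23.7% in either direction. The median log2 fold change of the 8 chains was -0.06 and the median of its absolute value 0.50, against 0.17 for all genes tested. For the same 6 chains the WT and Irf1-/- libraries occupied separate ranges, as they did for 40.5% of all genes tested. The study describes its 3 libraries of a genotype as independent biological samples, and the labels do not tie them to mice, so p-values measure the spread between these libraries. In such bulk RNA fewer cells expressing a gene and less RNA per cell cannot be told apart.

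**Figure D1:**
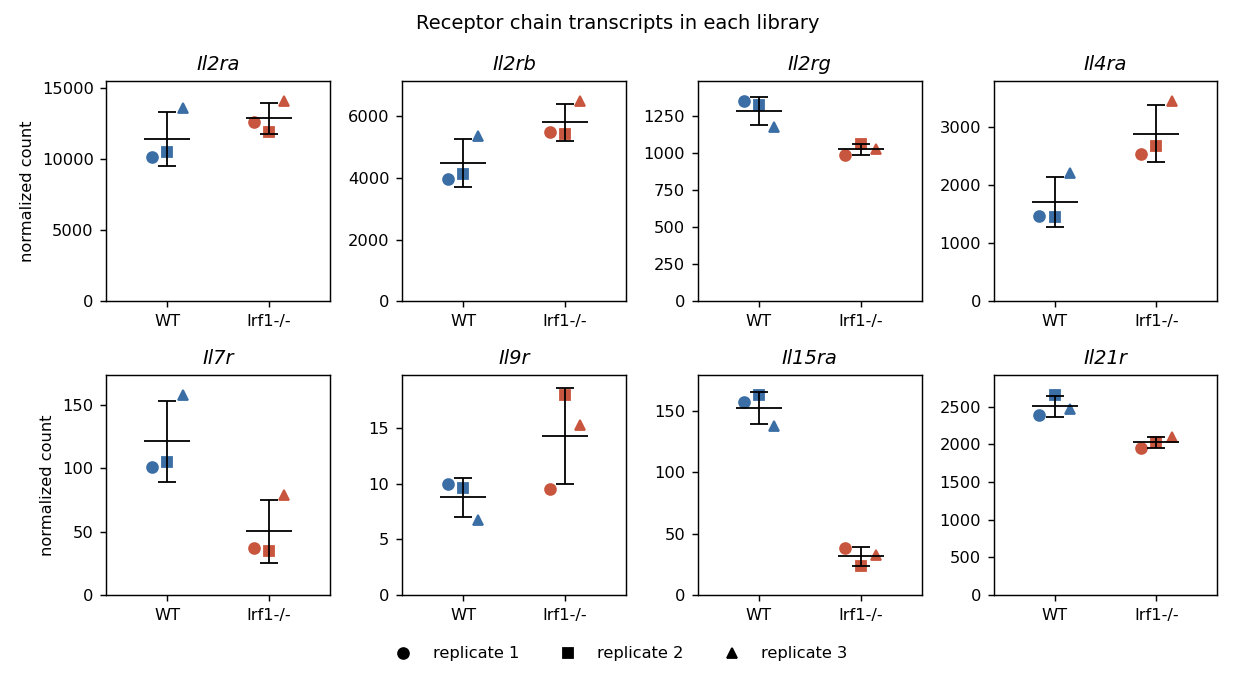
Normalized count of each receptor chain in the 3 WT (blue) and 3 Irf1-/- (red) libraries, with symbols for the replicate number and bars for the mean ± SD, on a separate linear axis for each gene starting at 0. Values of the genotypes do not overlap for 6 chains, and overlap for Il2ra and Il9r.

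Il2rg encodes the common gamma chain, which all 6 cytokine receptors share. It lies on chromosome X at 101268255 down to 101264378 of GRCm38 (ENSMUSG00000031304). Its normalized count was 1350, 1321 and 1175 in WT replicates 1 to 3 and 984, 1061 and 1030 in the Irf1-/- replicates. Every Irf1-/- library was below every WT library, and the gap between the nearest of them was small beside the levels. The mean fell from 1282 ± 94.1 to 1025 ± 38.8 (SD, n = 3 each), to 79.9% of WT (log2 fold change -0.32, 95% interval -0.47 to -0.17, adjusted p = 0.00657, limma). With the presence of Y-linked transcripts as a factor, which sets WT replicate 3 alone against the Irf1-/- libraries, the log2 fold change was -0.20 (adjusted p = 0.133, limma), and with their level as a covariate -0.21 (adjusted p = 0.0672). Within replicate 3, whose libraries both lack Y-linked transcripts, the difference was -0.19. Another annotated gene on the same strand, Gm20489, overlaps exons of Il2rg and was listed at 0 in every library. How reads that fall in both were counted is not given in the sources used here, and its part in the level of Il2rg was not tested.

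Il2rb encodes the signalling chain that the IL-2 and IL-15 receptors have in common. It lies on chromosome 15 at 78495271 down to 78479256 (ENSMUSG00000068227). It stood at 3950, 4128 and 5358 in WT and at 5495, 5424 and 6491 in Irf1-/- libraries. WT replicate 3, the highest of the WT libraries, was just below the lowest Irf1-/- value. The mean rose from 4479 ± 767 to 5803 ± 597 (SD, n = 3 each), to 130% of WT (log2 fold change 0.38, 95% interval 0.14 to 0.62, adjusted p = 0.0275, limma). The call was lost when any 1 library other than WT replicate 3 was left out, with log2 fold changes of 0.30, 0.33, 0.42, 0.43 and 0.30 and adjusted p of 0.11, 0.11, 0.054, 0.053 and 0.058 without WT replicates 1 and 2 and Irf1-/- replicates 1, 2 and 3. With Y-linked transcripts as a factor the log2 fold change was 0.11 (adjusted p = 0.488, limma), while it was 0.28 within replicate 3 and 0.43 over replicates 1 and 2.

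Il2ra encodes the alpha chain that turns the IL-2 receptor into its high-affinity form and is itself induced by IL-2 and by activation. It was the most abundant transcript of the set. Its counts were 10150, 10499 and 13593 in WT and 12626, 11910 and 14097 in Irf1-/- libraries. The genotypes overlapped, because WT replicate 3 exceeded Irf1-/- replicates 1 and 2. The means were 11414 ± 1895 and 12878 ± 1115 (SD, n = 3 each), a log2 fold change of 0.18 with a 95% interval from -0.04 to 0.41 (adjusted p = 0.228, limma). Without WT replicate 3 the log2 fold change was 0.32 and passed (adjusted p = 0.0036, limma), and with Y-linked transcripts as a factor it was -0.08 (adjusted p = 0.57). Within replicate 3 it was 0.05.

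Il15ra encodes the chain that binds IL-15 with high affinity and presents it to cells bearing the Il2rb product and the common chain. It changed more than any other member. Its counts were 157, 163 and 138 in WT and 38.2, 23.6 and 32.6 in Irf1-/- libraries. The lowest WT library was well above the highest Irf1-/- library. The mean fell from 153 ± 13.5 to 31.5 ± 7.38 (SD, n = 3 each), to 20.6% of WT (log2 fold change -2.27, 95% interval -2.68 to -1.85, adjusted p = 2.75e-05, limma). With Y-linked transcripts as a factor it was -2.12 (adjusted p = 0.000314, limma), and within replicate 3 alone -2.05. The gene rests on 17 to 224 reads per library, and a count of 3 reads corresponds to a normalized count of 1.84 to 4.16.

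Il2ra and Il15ra are neighbours on chromosome 2, both on the plus strand at 11642807 to 11693193 and 11705290 to 11734317 (ENSMUSG00000026770 and ENSMUSG00000023206), with 12.1 kb between them. The genes for the alpha chains of the IL-2 and IL-15 receptors thus lie side by side, and the lower value was that of Il15ra alone. The log2 ratio of Il2ra to Il15ra, with 1 added to both normalized counts, went from 6.20 in WT to 8.66 in Irf1-/-, and all 3 values of a genotype lay apart from those of the other. This ratio was picked after the values were seen and is given without a test. Of the other tested genes within 200 kb, Pfkfb3, Rbm17, Fbh1 and Ankrd16, none was called, with log2 fold changes from -0.15 to 0.19.

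Il4ra encodes the IL-4 binding chain, which pairs with the common chain in T cells and also forms part of the IL-13 receptor. Its counts were 1463, 1455 and 2214 in WT and 2542, 2677 and 3452 in Irf1-/- libraries. Replicate 3 was the highest of each genotype, and every Irf1-/- library was above every WT library. The mean rose from 1710 ± 436 to 2890 ± 491 (SD, n = 3 each), to 169% of WT (log2 fold change 0.77, SE 0.156, adjusted p = 0.00569, limma). With Y-linked transcripts as a factor the log2 fold change was 0.37 (adjusted p = 0.0834, limma), and with their level as a covariate 0.40 (adjusted p = 0.022). Within replicate 3 it was 0.64. An annotated antisense gene, Gm44876, overlaps exons of Il4ra and was not analysed here, and the library kit does not mark strand, so reads of both cannot be told apart.

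Il21r encodes the IL-21 binding chain, through which helper T cells respond mainly by STAT3. Its counts were 2387, 2658 and 2469 in WT and 1953, 2033 and 2096 in Irf1-/- libraries. The genotypes did not overlap and the libraries of each lay close together. The mean fell from 2505 ± 139 to 2028 ± 71.6 (SD, n = 3 each), to 80.9% of WT (log2 fold change -0.30, 95% interval -0.43 to -0.18, adjusted p = 0.00401, limma). With Y-linked transcripts as a factor it was -0.28 (adjusted p = 0.036, limma), and within replicate 3 -0.24.

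Il4ra and Il21r form another pair of neighbours, both on the plus strand of chromosome 7, at 125552120 to 125579474 and 125603429 to 125633570 (ENSMUSG00000030748 and ENSMUSG00000030745), 24 kb apart. They moved in opposite directions. The log2 ratio of Il4ra to Il21r was -0.71, -0.87 and -0.16 in WT and 0.38, 0.40 and 0.72 in Irf1-/- libraries, each taken after adding 1 to the normalized counts, so the ratio was higher in every Irf1-/- library than in every WT library. It was chosen after the values were seen and is not adjusted for gene length. On the other sides of the pair, Nsmce1 was higher (log2 fold change 0.65, adjusted p = 0.00393, limma) and Gtf3c1 lower (-0.19, adjusted p = 0.0237), while Kdm8 (-0.06, adjusted p = 0.712) and D430042O09Rik (0.24, adjusted p = 0.387) were not called.

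Il7r encodes the IL-7 receptor alpha chain, a survival receptor of naive and memory T cells that is turned down on activation. It lies on chromosome 15 at 9530176 down to 9505788 (ENSMUSG00000003882). Its counts were 101, 105 and 158 in WT and 37, 34.7 and 79.2 in Irf1-/- libraries. Replicate 3 was the highest of each genotype, and even there the Irf1-/- value was below all WT values. The mean fell from 121 ± 31.9 to 50.3 ± 25.1 (SD, n = 3 each; log2 fold change -1.33, 95% interval -1.97 to -0.68, adjusted p = 0.00889, limma). The log2 fold change was -0.99 within replicate 3, -1.50 over replicates 1 and 2, and -1.74 with Y-linked transcripts as a factor (adjusted p = 0.00976, limma).

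Il9r encodes the receptor for IL-9, the cytokine for which Th9 cells are named. It lies on chromosome 11 at 32200279 down to 32187541 (ENSMUSG00000020279). Its counts were 9.98, 9.62 and 6.76 in WT and 9.55, 18 and 15.3 in Irf1-/- libraries, from only 8 to 24 reads each. Irf1-/- replicate 1 fell among the WT values. The means were 8.79 ± 1.76 and 14.3 ± 4.33 (SD, n = 3 each), and the log2 fold change of 0.62 had a 95% interval from -0.17 to 1.41 (adjusted p = 0.243, limma). With Y-linked transcripts as a factor the log2 fold change was 0.94 (adjusted p = 0.279, limma), and within replicate 3 it was 1.07. At this depth the interval includes both no difference and more than a doubling.

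**Figure D2:**
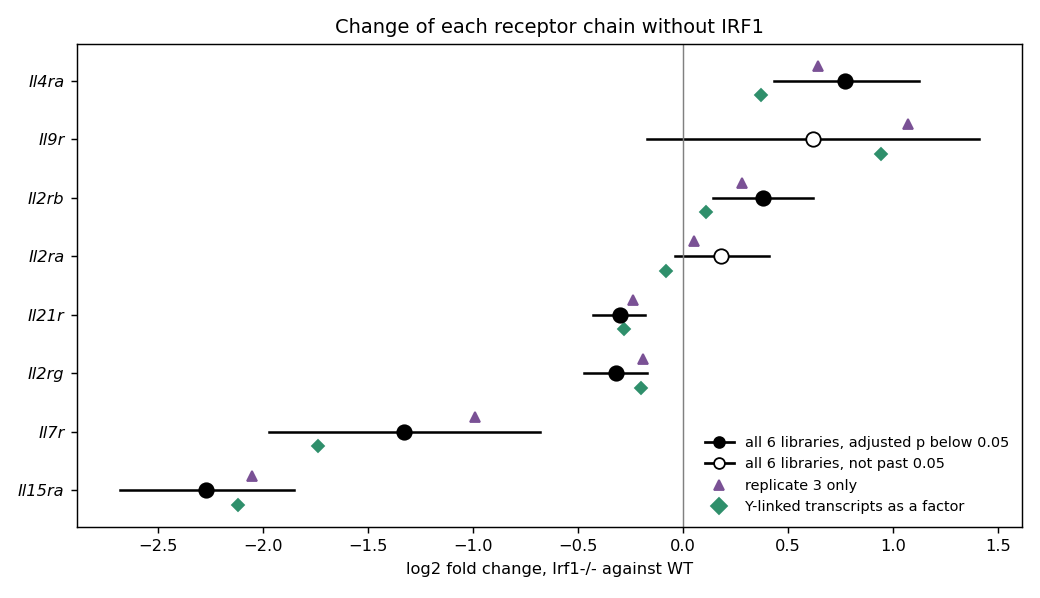
Log2 fold change of each receptor chain, Irf1-/- against WT, with its 95% interval, as circles with lines, filled where the adjusted p was below 0.05. Triangles give replicate 3 alone and diamonds the fit with Y-linked transcripts as a factor. Il15ra and Il7r stay below 0 in each, while Il2ra falls on either side of 0.

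Levels of different genes were compared per length, as RPKM, the recovered reads on a gene scaled to its exon length in kilobases and to the reads on all genes of the library. In WT cells Il2ra was at 248 ± 36.5, Il2rb at 130 ± 19.8, Il21r at 93.8 ± 5.92, Il2rg at 66.9 ± 6.02 and Il4ra at 35.4 ± 8.32 RPKM (SD, n = 3 each). Well below them were Il15ra at 4.28 ± 0.448, Il7r at 3.22 ± 0.785 and Il9r at 0.222 ± 0.0478. Of neighbours in this order, only Il15ra and Il7r overlapped between libraries. The transcript of the common chain was thus at a lower level per length than those of the IL-2 receptor alpha and beta chains and of the IL-21 receptor chain, which were 3.71, 1.94 and 1.4 times its level.

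In Irf1-/- cells Il2ra was at 286 ± 22.6, Il2rb at 172 ± 16.4, Il21r at 77.4 ± 2.5, Il4ra at 61.1 ± 9.97 and Il2rg at 54.5 ± 2.25 RPKM (SD, n = 3 each). Il4ra and Il2rg now overlapped, as did Il7r at 1.37 ± 0.671 and Il15ra at 0.898 ± 0.208, and Il9r was again the lowest at 0.367 ± 0.112. Among the 8 transcripts, summed per length, Il2ra made up 42.5% in WT and 43.8% in Irf1-/-, and Il2rb 22.2% and 26.3%. The share of Il4ra was 6.03% in WT and 9.31% in Irf1-/-, while that of Il2rg was 11.6% and 8.37% and that of Il21r 16.2% and 11.9%.

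**Figure D3:**
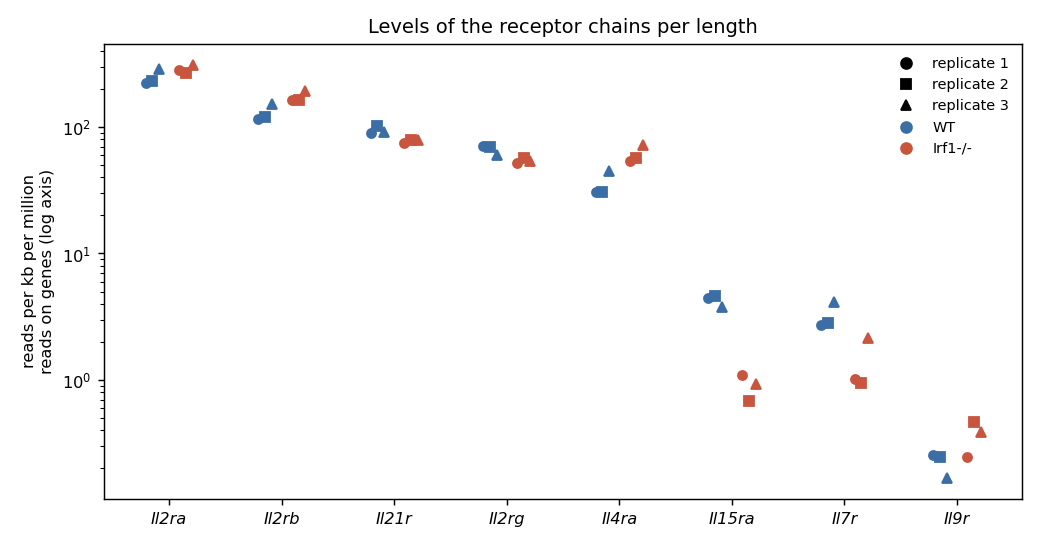
Level of each receptor chain per length, in RPKM, on a log axis, with 1 point for each library, WT in blue and Irf1-/- in red, and symbols for the replicate number. In both genotypes Il2ra and Il2rb are the highest and Il9r is the lowest, and Il15ra goes from 4.28 in WT to 0.898 in Irf1-/-.

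Since the other chains belong to receptors that contain the common chain, the log2 ratio of each to Il2rg was taken within each library. For this, 1 was added to both normalized counts, which draws the ratio of a low gene such as Il9r towards 0. The ratio of Il4ra to Il2rg was 0.12, 0.14 and 0.91 in WT and 1.37, 1.33 and 1.74 in Irf1-/- libraries, a difference of 1.09 or 2.13-fold. The ratio of Il2rb to Il2rg was higher by 0.70 and that of Il9r by 0.94, whereas that of Il15ra was lower by 1.95, which is 3.85-fold. For these 4 of 7 ratios the genotypes did not overlap. Among single genes the same held for 40.5% of all tested, and no such share was taken for ratios. The Il9r ratio rests on 8 to 24 reads of Il9r per library, and the Il9r counts themselves overlapped. The exact permutation test, two-sided, gave each of the 4 ratios p = 0.1, the smallest value that 3 against 3 libraries allow. After Benjamini-Hochberg adjustment over the 7 ratios it was 0.175.

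The ratios of Il2ra and Il7r to Il2rg overlapped between genotypes, with a log2 difference of 0.50 for Il2ra and a 2.01-fold lower mean ratio for Il7r (exact permutation p = 0.2 for each, adjusted p = 0.233). The log2 ratio of Il21r to Il2rg was 0.97 ± 0.13 in WT and 0.98 ± 0.0439 in Irf1-/- (SD, n = 3 each; exact permutation p = 0.9), as both transcripts fell by similar amounts, to 80.9% and 79.9% of WT.

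**Figure D4:**
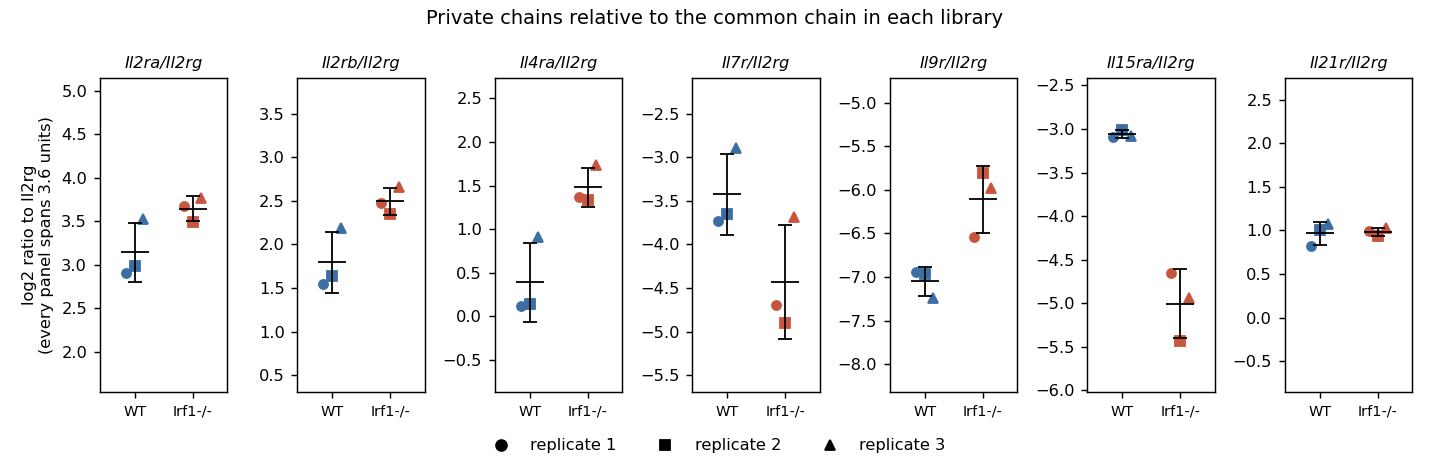
Log2 ratio of each private chain to Il2rg in each library, with 1 added to both normalized counts, WT in blue and Irf1-/- in red, with bars for the mean ± SD and a log2 scale of equal span in each panel. The Il15ra ratio lies near -3.06 in WT and -5.01 in Irf1-/-, and the Il21r ratio near 1 in both.

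For the ligands, 3 of the 4 cytokines tested passed. Il9, the product of these cells, was 852, 939 and 1272 in WT and 3201, 3283 and 3726 in Irf1-/- libraries (log2 fold change 1.75, adjusted p = 9.25e-06, limma). Il2, the T cell growth factor, fell from 240, 231 and 170 to 68.1, 86 and 143 (-1.15, adjusted p = 0.0062, limma). Il4, on only 6 to 110 reads per library, fell from 32.4, 38.5 and 67.6 to 11.9, 8.32 and 7.67 (-2.15, adjusted p = 0.00113, limma). The genotypes did not overlap for any of the 3, although with Y-linked transcripts as a factor the Il2 value was -0.84 (adjusted p = 0.0869), and Il2 was at -0.24 within replicate 3 against -1.61 over replicates 1 and 2. Il13, which shares Il4ra through another receptor, had a log2 fold change of 0.15 (adjusted p = 0.628). Il7 had no reads in any library, Il15 was at 0 to 1.23 and Il21 at 1.25 to 10.8, below the level tested. IL-2 and IL-4 were also supplied in the medium, so their transcript is not a measure of how much ligand the cells saw.

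Of the kinases and STATs that carry the signal, 2 of 6 were lower and none was higher. Stat3, which IL-21 activates, had a log2 fold change of -0.38 (adjusted p = 0.00167, limma) and Stat5a, which IL-2 activates, -0.22 (adjusted p = 0.0087), while Jak1 was at 0.11 (adjusted p = 0.296), Jak3 at 0.12 (adjusted p = 0.115), Stat5b at 0.01 and Stat6 at -0.06. Of 8 adaptors tested, Irs2, which docks to the IL-4 receptor chain, was higher (0.66, adjusted p = 0.0013) and Ptpn11 lower (-0.39). Of 7 feedback inhibitors, Socs3 was higher (1.28, adjusted p = 7.21e-05), as was Socs2 (0.25), and the phosphatase Ptpn6 was lower (-0.37). Stat5a missed the threshold without WT replicate 2 (-0.20, adjusted p = 0.051), and Socs2 without replicate 1 or 2 of either genotype (0.19 to 0.24, adjusted p = 0.123 to 0.163). Stat5a was at -0.18 (adjusted p = 0.0755) with Y-linked transcripts as a factor and Socs2 at 0.16 (adjusted p = 0.373), and Socs2 also missed in DESeq2 (adjusted p = 0.052) and was at 0.00 within replicate 3. Cish and Socs1, the inhibitors most closely tied to STAT5 and IFN-γ, were at 0.09 and 0.08 and did not pass. The partner chain that could be tested, Crlf2, which pairs with Il7r for TSLP, was at 0.05 (adjusted p = 0.792).

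Genes that STAT5 is known to induce moved in both directions. Of 9 tested, Bcl2, a survival factor (log2 fold change 0.66, adjusted p = 0.003, limma), and Foxp3, the regulatory T cell factor (0.89, adjusted p = 5.8e-05), were higher, whereas Bcl2l1 (-0.21) and Ccnd2 (-0.22) were lower. Genes that STAT6 is known to induce were higher for 3 of 4, namely Nfil3 (1.23, adjusted p = 0.00176), Il24 (1.04, adjusted p = 0.0154) and Batf (0.38, adjusted p = 0.00559), and Gata3 was at 0.06. Bcl2l1 missed the threshold without replicate 1 or 2 of either genotype (-0.21 to -0.18, adjusted p = 0.0931 to 0.124), Ccnd2 without WT replicate 2 or Irf1-/- replicate 1 or 2 (-0.22 to -0.18, adjusted p = 0.0867 to 0.0997), and Il24 without WT replicate 1 or 2 or Irf1-/- replicate 2 (0.84 to 1.05, adjusted p = 0.0575 to 0.0695). With Y-linked transcripts as a factor Il24 was at 0.33 (adjusted p = 0.32), Batf at 0.35 (adjusted p = 0.0576) and Bcl2l1 at -0.14 (adjusted p = 0.27; -0.04 within replicate 3), and Il24 also missed in DESeq2 (adjusted p = 0.0758).

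Il7r belongs to the transcripts that naive T cells carry, and 3 of 5 genes of a naive T cell list were also lower. Klf2, which drives homing genes, had a log2 fold change of -1.72 (adjusted p = 0.0255, limma), the chemokine receptor Ccr7 -0.43 and the transcription factor Tcf7 -0.26. S1pr1, the receptor for exit from lymph nodes, was higher (0.99, adjusted p = 0.00183). Klf2 lost its call without WT replicate 1 (-1.51, adjusted p = 0.0993) or WT replicate 2 (-1.46, adjusted p = 0.108), and with Y-linked transcripts as a factor was at -0.76 (adjusted p = 0.393), where Tcf7 missed as well (-0.19, adjusted p = 0.0953). Of 5 regulators of Il7r, Runx1 alone passed, at -0.26, and not without replicate 1 or 2 of either genotype (-0.26 to -0.21, adjusted p = 0.0533 to 0.0831) or with Y-linked transcripts as a factor (-0.17, adjusted p = 0.229).

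In all, 49 of the 56 other genes of the pathway were tested, of which 10 were higher and 12 lower (shares for all genes are 11.4% and 12.4%), and their median log2 fold change was 0.02. Without WT replicate 2, 7 were lower in place of 12. Of 18 tested receptors for cytokines that do not use the common chain, 3 passed, Il18r1 (1.85) and Il27ra (0.22) higher and Il12rb1 (-1.29) lower, with a median absolute log2 fold change of 0.16, against 6 of 8 and 0.50 for the chains described here. Il27ra missed the threshold without WT replicate 1 or 2 or Irf1-/- replicate 1 (0.19 to 0.22, adjusted p = 0.0923 to 0.115), with Y-linked transcripts as a factor (0.16, adjusted p = 0.268) and in DESeq2 (adjusted p = 0.0644). This contrast of lists is a description, as the lists were chosen with results for these data known.

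**Figure D5:**
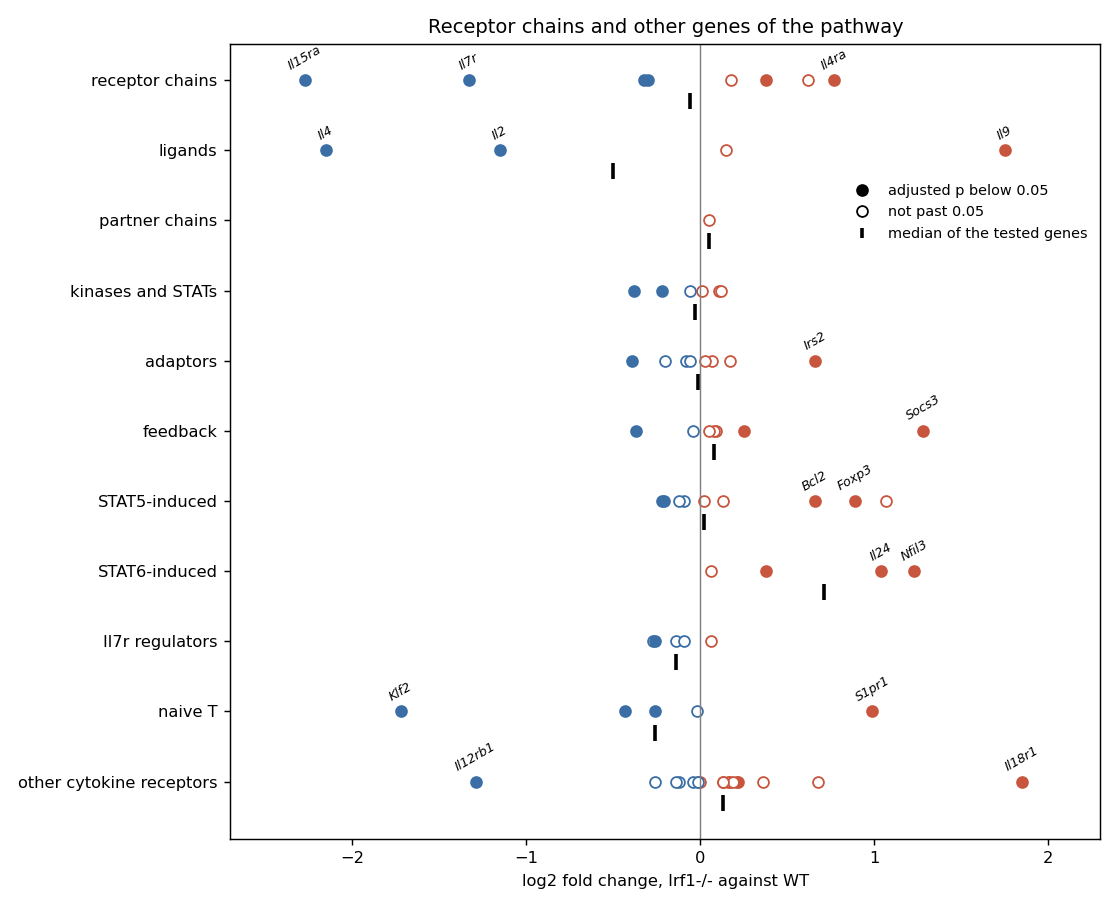
Log2 fold change, Irf1-/- against WT, of the receptor chains and of the other genes in each pathway list, with filled points for adjusted p below 0.05 and open points for the rest, blue below 0 and red above, and a bar for the median of the list. Il15ra and Il7r lie at -2.27 and -1.33, while the kinases and STATs lie close to 0.

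The genes with the pattern most like each chain were taken as those with the smallest Euclidean distance over the 6 centred log2 values, among genes with a mean of at least 100. For Il15ra the nearest of 8225 was Erap1, an aminopeptidase that trims peptides for MHC class I, at a distance of 0.562 where a flat profile lies at 2.82. Its normalized count was 1514, 1538 and 1544 in WT and 423, 368 and 411 in Irf1-/- libraries. For Il4ra the nearest was Pgm1 (0.132), for Il2rb Rnf213 (0.0981), for Il2ra Ciz1 (0.093), for Il21r Pgm2l1 (0.0625), for Il7r Tmem229b (0.493) and for Il9r Il1a (0.41). The 5 nearest to Il2rg were Carmil2 (0.0722), Btg1, Ccz1, Ski and Trbc1 (0.0906), with log2 fold changes from -0.35 to -0.26. Over 6 libraries many genes share such profiles, and nearness is given as a description.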

How the data were processed

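Polyadenylated RNA of 3 WT and 3 Irf1-/- Th9 cultures with IFN-γ was sequenced in single reads. The authors mapped the reads with STAR 2.4.0b to GRCm38, counted them per Ensembl gene with featureCounts and deposited normalized counts (a signal on a linear scale), that is counts divided by DESeq2 1.12.3 size factors. Strand and multimapping settings are not given in the sources used here. Library names in the table were matched to the labels.

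Values were analysed as log2(normalized count + 1), so fold changes of low genes are understated, for genes with a mean of at least 10, by limma 3.58.1 in R 4.3.3 with a mean-dependent spread and Benjamini-Hochberg adjustment, called at 0.05. The study used DESeq2, which needs counts. All non-zero values (100%) came out as whole reads within a tolerance of 0.001 once the size factor was undone, so edgeR 4.0.16 and DESeq2 1.42.0 were run on these reads as alternatives and called 2678 and 2002 genes. Other alternatives changed the pseudocount, filter, scaling, trend, covariates and libraries. The fits were tested on counts simulated with known changes.

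Lengths and positions came from GENCODE M21 on GRCm38, while the authors counted on another Ensembl release. No 2 libraries of a genotype agreed within sampling noise, with a chi-square per degree of freedom of 1.28 (WT) and 1.81 (Irf1-/-) between replicates 1 and 2 and of 5.99 to 7.34 between either of them and replicate 3. All 8 chains are named, pathway genes past the threshold first, and for likeness the nearest gene of each chain (5 for Il2rg). The members and lists were chosen with earlier results of these data known, and a gene fixed in a pathway list with the design was left out of the lists, counts and text and is not reported here. Read numbers cover counting error only.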

Additional observations from a re-analysis of the deposited data

How the results depend on the processing

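Of 19 other settings chosen with the design, none turned the direction of a called chain. Il15ra and Il21r kept their call in all 18 that gave a test, with log2 fold changes from -2.42 to -1.99 and from -0.34 to -0.24. The chains called higher, 2 with all libraries, were 0 without the mean-dependent spread, 1 with the level of Y-linked transcripts as a covariate, 0 with Y-linked transcripts as a factor (chosen after seeing the data), and 1 to 3 with a library left out. Of the 4 lower chains, 3 passed in each of those fits with Y-linked terms and without the mean-dependent spread, where Il7r (adjusted p = 0.0552) and, among the higher, Il4ra (adjusted p = 0.0547) missed. Il2ra changed sign with that covariate (-0.06). With a library left out, Il7r ranged from -1.70 to -1.12 and Il4ra from 0.64 to 0.97.

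Pathway genes called lower, 12 with all libraries, were 6 without the mean-dependent spread and 7 to 14 with a library left out. Other cytokine receptors called, 3 with all libraries, were 5 over replicates 1 and 2 only. The genes called among all 11379 tested went from 2699 to 1637 without WT replicate 1, 1625 without WT replicate 2, 1715 without Irf1-/- replicate 2, 1735 without the mean-dependent spread and 1356 with Y-linked transcripts as a factor. The cause was not tested.

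Same-numbered libraries were not shown to be paired. Their deviations correlated at 0.0922, 0.269 and 0.321 for replicates 1 to 3, and each library correlated best with its own number. With a replicate block 4009 genes were called, 5 of the other cytokine receptors, and 3 chains higher and 4 lower, as Il2ra also passed (adjusted p = 0.0078, limma). Depth limits Il9r most, at 8 to 24 reads per library.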

Other observations

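Genes next to the other chains were also read. Of those tested within 200 kb of Il2rb, Mpst (log2 fold change 0.60), Kctd17 (0.44), Rac2, the GTPase of blood cells (0.37), and Cyth4 (0.69) were called higher, while Tst and C1qtnf6 were not called (adjusted p = 0.0661 and 0.283, limma). Foxo4, whose product is a FOXO transcription factor, lies 3.5 kb from Il2rg and was called higher (0.52, adjusted p = 0.0354), whereas Il2rg was called lower, and Med12, at 5.78 kb, was at -0.04 (adjusted p = 0.769). Farther from Il2rg, Slc7a3 (1.04, adjusted p = 0.00232, limma) and Zmym3 (0.29, adjusted p = 0.0217) were called higher, and Snx12 (0.07), Nono (-0.02) and Itgb1bp2 (-0.07) were not called. No tested neighbour of Il9r was called, nor was Spef2, the neighbour of Il7r tested. These genes were picked by position alone.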
